A study of Homo sapiens with 3 samples.

Results

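The 37 zinc finger genes that lie next to each other at 19q13.4, from ZNF577 to ZNF331, were followed across 3 RNA-seq libraries of the human liver cancer cell line HepG2 and its metformin-selected derivative. The members are the rows whose gene symbol is on this list, 37 of the 25270 symbols in the deposited values, and all 37 were found. The genes were chosen by their values in these same libraries as well as by position, so their on and off states are a description and no test of them was made. The parental HepG2 library came from cells labelled as untreated. The HepG2/metR library came from HepG2 cells that had lived through metformin, an inhibitor of mitochondrial complex I, for over 5 months. The oxamate-treated HepG2/metR library came from the same selected cells after 24 h in 40 mM oxamate, an inhibitor of lactate dehydrogenase. All were grown in the same serum-containing base medium, and oxamate was added when the selected cells covered part of the dish. The study's methods do not state whether metformin was still present in the HepG2/metR cultures when RNA was taken. HepG2/metR is 1 selected population, and each condition had 1 library, so no p-value or replicate error can be given, and differences between cultures and between conditions cannot be told apart. Values are FPKM, fragments counted per unit of transcript length and of library size, which allows levels to be compared between genes. The number of reads behind each value is unknown. The summed FPKM was 562350 in the parental library, 534639 in HepG2/metR and 473764 with oxamate, and 11353, 11412 and 11647 genes reached 1 FPKM.

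Most genes of this cluster encode KRAB zinc finger proteins. Such a protein binds DNA through an array of zinc fingers, and its KRAB domain recruits the corepressor TRIM28, which brings in the histone methyltransferase SETDB1 and HP1 proteins. The best known targets of the family are transposable elements, and the genes arose by repeated local duplication, which placed many of them in long runs on chromosome 19.

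The cluster was largely transcribed in parental HepG2 and largely silent in both HepG2/metR libraries. Here a gene is called on at 1 FPKM or more and off under 0.1 FPKM. In parental HepG2, 25 of the 37 members were on, 5 lay between the limits and 7 were off. In HepG2/metR, 7 were on, 4 lay between and 26 were off, and with oxamate 8 were on, 3 lay between and 26 were off. Added up, the members had 87.4 FPKM in the parental library, 31.2 FPKM in HepG2/metR and 34.3 FPKM with oxamate. Their median level was 2.33 FPKM in parental HepG2 and 0 in both other libraries.

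Of the 25 members on in parental HepG2, 15 were off in both HepG2/metR libraries, which is 60% of them. Over all genes on in parental HepG2 this share was 5.36%, but the members were chosen by this pattern and the count is not evidence for it. For 12 of the 15 the deposited value was 0 in both HepG2/metR libraries, against 2.6% of all genes on in parental HepG2. Another 7 members were on in all 3 libraries, namely ZNF350, ZNF615, ZNF614, ZNF432, ZNF766, ZNF480 and ZNF331, a pattern held by 87.9% of all genes on in parental HepG2. None of the 7 members that were off in parental HepG2 was on in both HepG2/metR libraries, compared with 5.74% of all genes off in parental HepG2. Near the limits, ZNF841 stood just above off in HepG2/metR at 0.11 FPKM and ZNF616 just inside at 0.0594 FPKM, while ZNF611 was just on in parental HepG2 at 1.04 FPKM and ZNF836 just short of it at 0.875 FPKM.

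**Figure D1:**
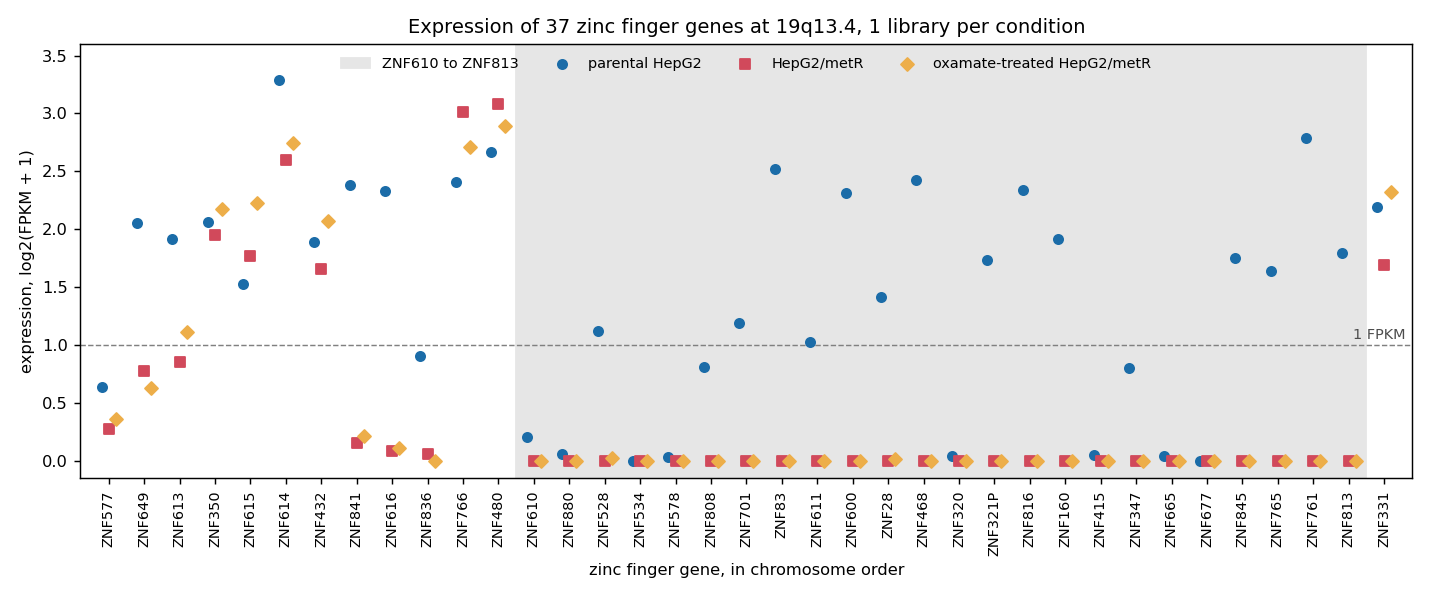
Level of each of the 37 members as log2(FPKM + 1), with the genes in chromosome order on the horizontal axis and 1 point per library. In the shaded stretch from ZNF610 to ZNF813 every HepG2/metR point is at 0 and the highest oxamate point stands for 0.0175 FPKM, while the parental points reach 5.92 FPKM.

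The silent members were neighbours. In chromosome order the cluster read as a run of 7 genes that stayed transcribed in part or whole (ZNF577 to ZNF432), a run of 3 that were lost or nearly lost (ZNF841, ZNF616 and ZNF836), 2 that stayed on (ZNF766 and ZNF480), 24 that were at or near 0 in both HepG2/metR libraries (ZNF610 to ZNF813), and ZNF331, which stayed on. These borders were drawn after the values were seen. Promoters of members from each side of the borders are given next, because they show a sequence feature that differed along the cluster. The choice of genes did not use promoter sequence. The groups compared below are nonetheless formed by the same on and off states, and the printed members were picked by state. The promoter counts are therefore a description. The promoters run from 250 bases before to 50 after the RefSeq start in GRCh38.p14, 5′ to 3′ on the gene's own strand. GC boxes, the letters GGGCGG or, on the other strand, CCGCCC, are in capitals; this is the core of the element that the Sp1 family of activators binds. ZNF614 (chr19:52028330-52028629, minus strand), ZNF766 (chr19:52269337-52269636, plus strand) and ZNF331 (chr19:53520764-53521063, plus strand) were on in all 3 libraries. ZNF616 (chr19:52139889-52140188, minus strand), ZNF816 (chr19:52962832-52963131, minus strand) and ZNF761 (chr19:53431734-53432033, plus strand) were on in parental HepG2 and off in both HepG2/metR libraries.
ZNF614: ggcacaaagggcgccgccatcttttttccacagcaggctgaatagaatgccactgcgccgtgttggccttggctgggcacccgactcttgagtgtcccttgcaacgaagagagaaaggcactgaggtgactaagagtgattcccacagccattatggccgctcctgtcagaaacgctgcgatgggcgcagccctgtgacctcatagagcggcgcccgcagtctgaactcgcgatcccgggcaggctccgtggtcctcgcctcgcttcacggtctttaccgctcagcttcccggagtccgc
ZNF766: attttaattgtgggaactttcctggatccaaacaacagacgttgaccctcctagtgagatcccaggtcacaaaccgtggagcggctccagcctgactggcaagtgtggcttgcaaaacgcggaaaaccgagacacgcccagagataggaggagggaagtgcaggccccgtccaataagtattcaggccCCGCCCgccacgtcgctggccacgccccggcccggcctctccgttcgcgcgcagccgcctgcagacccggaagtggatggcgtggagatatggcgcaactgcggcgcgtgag
ZNF331: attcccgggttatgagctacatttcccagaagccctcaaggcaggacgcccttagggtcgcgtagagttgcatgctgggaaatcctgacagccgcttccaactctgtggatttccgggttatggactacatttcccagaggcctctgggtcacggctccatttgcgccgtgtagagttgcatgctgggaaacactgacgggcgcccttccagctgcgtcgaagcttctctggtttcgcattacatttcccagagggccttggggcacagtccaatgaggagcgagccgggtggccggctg
ZNF616: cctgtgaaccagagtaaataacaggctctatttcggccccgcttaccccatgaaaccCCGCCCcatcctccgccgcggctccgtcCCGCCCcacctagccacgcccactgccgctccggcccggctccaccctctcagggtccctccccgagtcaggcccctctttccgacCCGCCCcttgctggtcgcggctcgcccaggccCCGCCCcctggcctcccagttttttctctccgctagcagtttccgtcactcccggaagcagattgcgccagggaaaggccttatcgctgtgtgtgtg
ZNF816: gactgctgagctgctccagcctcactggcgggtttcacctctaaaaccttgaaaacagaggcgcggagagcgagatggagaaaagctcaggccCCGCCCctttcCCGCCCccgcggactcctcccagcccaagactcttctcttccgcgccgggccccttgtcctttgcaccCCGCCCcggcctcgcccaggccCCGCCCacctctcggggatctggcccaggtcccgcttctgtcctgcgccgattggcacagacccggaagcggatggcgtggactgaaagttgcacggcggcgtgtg
ZNF761: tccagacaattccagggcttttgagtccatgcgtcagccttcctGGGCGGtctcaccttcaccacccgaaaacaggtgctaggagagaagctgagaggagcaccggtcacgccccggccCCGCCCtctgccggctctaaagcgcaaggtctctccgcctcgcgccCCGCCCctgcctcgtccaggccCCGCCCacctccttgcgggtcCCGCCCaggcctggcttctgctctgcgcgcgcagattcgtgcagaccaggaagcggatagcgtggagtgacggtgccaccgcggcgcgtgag

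In these windows ZNF614 and ZNF331 held no GC box and ZNF766 held 1, whereas ZNF616 and ZNF816 held 4 each and ZNF761 held 5. The printed silent members are from the upper end of the range. ZNF528 and ZNF845, also on in parental HepG2 and off in both HepG2/metR libraries, held 1 and 2, so ZNF528 had as many as ZNF766. The RefSeq promoter table matched 30 of the 37 members; ZNF649, ZNF480, ZNF610, ZNF600, ZNF28, ZNF321P and ZNF665 were not matched, and for the 8 members with several starts the most upstream one was used. All 21 matched members that were off in both HepG2/metR libraries had at least 1 GC box, with a median of 3 and a range of 1 to 5, and 17 of them, 81.0%, had 2 or more. Of the other 9 matched members, 4 had any and 1 had 2 or more, with a median of 0. That 1 was ZNF841, which had 5 boxes and was itself down to 0.11 FPKM in HepG2/metR. These counts depend on the start that is read: at another RefSeq start ZNF701 and ZNF160, both off in HepG2/metR, and ZNF841 held 0 boxes, so that at some start 2 of the 21 have none. Among all 27305 promoters in the table, 44.5% held a GC box and 26.6% held 2 or more. Among those of 182 ZNF genes of chromosome 19 outside the cluster, 64.3% held a GC box and 28.6% held 2 or more. The count of CG dinucleotides differed less, with a median of 26 per window in the members off in both HepG2/metR libraries, 22 in the other members and 13 in all promoters. The boxes followed position. The 6 matched promoters from ZNF577 to ZNF432 had 0 or 1 box, the 3 from ZNF841 to ZNF836 had 4 or 5, and the 19 from ZNF610 to ZNF813 had 1 to 5. The 21 members off in both HepG2/metR libraries include the 6 matched members already off in parental HepG2. These 6 had boxes too, 1 to 5, among them ZNF677 with 5 and ZNF534 with 1. A GC box in a window is a match of letters and not a bound site.

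**Figure D2:**
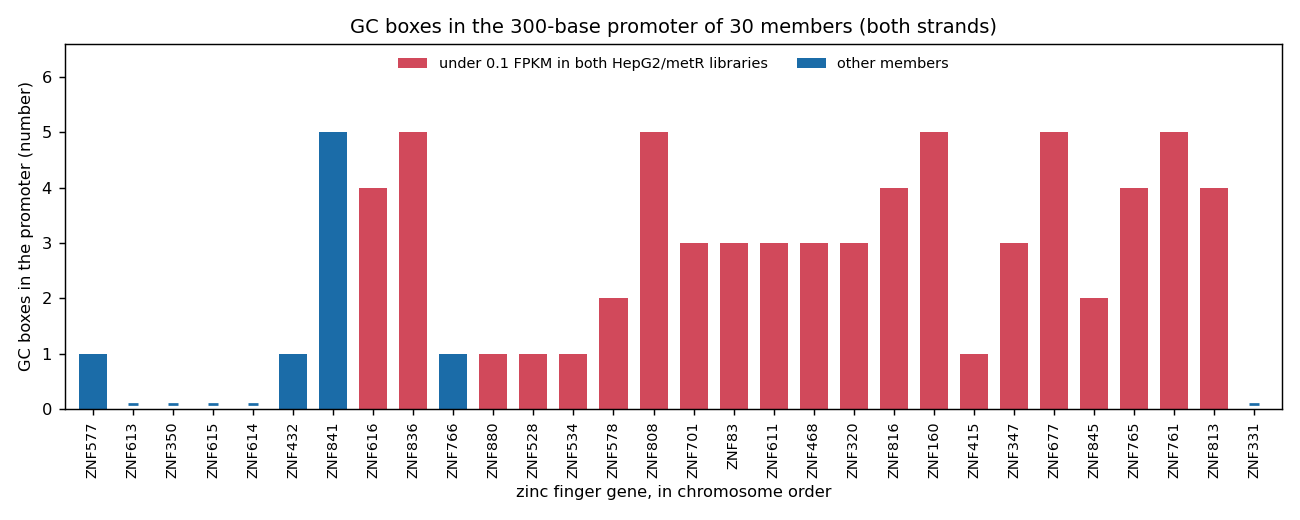
Number of GC boxes, on either strand, in the 300-base promoter at the most upstream start of the 30 matched members in chromosome order, with a short dash where there was none. Red bars, members under 0.1 FPKM in both HepG2/metR libraries, run from 1 to 5, while most blue bars, the other members, are at 0 or 1 except ZNF841 at 5.

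The 10-letter run found in the largest number of member promoters was AGGCCCCGCC (on the other strand GGCGGGGCCT), whose last letters overlap a GC box where a further C follows. It was picked because it was the most frequent, after the states were known. It was in 15 of the 30 matched promoters. These were 13 of the 21 members off in both HepG2/metR libraries (61.9%) and 2 of the 9 others, ZNF841 and ZNF766. Of all promoters 3.11% held it, and of the 182 from other ZNF genes of chromosome 19, 14.3% did. Neighbouring members arose by duplication and share sequence, so their promoters are not independent points.

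The stretch from ZNF610 to ZNF813 held 24 members, 11 on the plus and 13 on the minus strand, and carried 48.1% of the summed member FPKM in parental HepG2. There, 14 members were on, 3 lay between the limits and 7 were off, of which ZNF534 and ZNF677 were listed at 0 in all 3 libraries. In HepG2/metR all 24 were listed at 0. With oxamate 22 were listed at 0, and the other two were ZNF528 at 0.0175 FPKM and ZNF28 at 0.00772 FPKM. Summed over the 24, the level was 42.1 FPKM before selection, 0 after it and 0.0252 FPKM with oxamate. The values with and without oxamate are both so low that no difference between them was detectable. A value of 0 means that the gene is listed at 0 in a normalized table of unknown read depth, so no fold change is given for these genes.

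Within that stretch the levels in parental HepG2 were uneven. ZNF761 was highest at 5.92 FPKM, followed by ZNF83 at 4.75 FPKM, ZNF468 at 4.37 FPKM, ZNF816 at 4.07 FPKM and ZNF600 at 3.97 FPKM. ZNF160, whose protein has been described as a repressor of the Toll-like receptor gene TLR4, was at 2.76 FPKM, and its neighbour ZNF415 was off at 0.0334 FPKM. ZNF813 was at 2.47, ZNF845 at 2.36, ZNF321P at 2.33 and ZNF765 at 2.12 FPKM. These 10 genes and ZNF415, on both strands, were all listed at 0 in HepG2/metR and with oxamate. ZNF28 at 1.67, ZNF701 at 1.28, ZNF528 at 1.17 and ZNF611 at 1.04 FPKM were the lowest of the members that were on. ZNF808, whose loss in humans impairs formation of the pancreas, was between the limits at 0.750 FPKM, as were ZNF347 at 0.743 FPKM and ZNF610 at 0.150 FPKM. The remaining members above 0 were ZNF880 at 0.0399, ZNF320 at 0.0274, ZNF665 at 0.0265 and ZNF578 at 0.0249 FPKM. The silent stretch thus included genes that were on in parental HepG2 and genes that were off there, and none of its members was above 5.92 FPKM.

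Few genes off the list lay in the same stretch and were transcribed in parental HepG2. The deposited values hold 36 genes there, the 24 members and 12 others, and 7 of the 12 were listed at 0 in all 3 libraries. The read-through gene ZNF816-ZNF321P was at 1.93e-06 FPKM in parental HepG2 and 0 in the others, which leaves 4 with a value to lose. Among all 36 the highest value was 0.0124 FPKM in HepG2/metR and 0.0175 FPKM with oxamate. TPM3P9, a tropomyosin pseudogene that overlaps ZNF761 and was the only one of them on in parental HepG2, had 2.34 FPKM in parental HepG2, 0.0124 FPKM in HepG2/metR and 0 with oxamate. ZNF525 had 0.747 FPKM and the pseudogene ZNF137P 0.575 FPKM in parental HepG2, and both were listed at 0 in the other libraries. The pseudogene ZNF818P had 0.208, 0.0114 and 0 FPKM.

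The run of ZNF841, ZNF616 and ZNF836, all on the minus strand, lay apart from this stretch. ZNF841 had 4.20 FPKM in parental HepG2, 0.11 FPKM in HepG2/metR and 0.162 FPKM with oxamate. ZNF616 had 4.04, 0.0594 and 0.0814 FPKM in the same order, and ZNF836 had 0.875, 0.0432 and 0 FPKM. On the log2(FPKM + 1) scale ZNF841 fell by 2.23 and ZNF616 fell by 2.25 from parental HepG2 to HepG2/metR. Their promoters held 4 or 5 GC boxes each at the most upstream start, at the upper end of the range of 1 to 5 in the longer silent stretch.

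Between the 2 silent runs, transcription was kept. PPP2R1A, the scaffold subunit of protein phosphatase 2A and no zinc finger gene, lies between ZNF836 and ZNF766 and had 64.8 FPKM in parental HepG2, 67.0 FPKM in HepG2/metR and 59.9 FPKM with oxamate. ZNF766 had 4.30, 7.06 and 5.53 FPKM, and ZNF480 had 5.34, 7.45 and 6.41 FPKM. Both were the only members besides ZNF615 with a higher value in HepG2/metR than in parental HepG2, by 0.61 for ZNF766, 0.41 for ZNF480 and 0.24 for ZNF615 on the log2(FPKM + 1) scale, all under 2-fold. Under upper-quartile scaling ZNF350 joined them, with a difference that turned from -0.11 to 0.0056. ZNF480 is the immediate neighbour of ZNF610, where the silent stretch began.

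At the other border, ZNF813 was listed at 0 in both HepG2/metR libraries and the next member, ZNF331, was on in all 3. ZNF331, an imprinted gene in several human tissues, had 3.57 FPKM in parental HepG2, 2.23 FPKM in HepG2/metR and 3.99 FPKM with oxamate. The ratio of the oxamate-treated to the untreated HepG2/metR library was 1.79 in FPKM. Outside the cluster, the 5 RefSeq genes on each side included 5 with deposited values, FPR1, FPR2, FPR3, LOC284379 and DPRX, and all were listed at 0 in the 3 libraries. The nearest protein-coding genes outside that were on in any library were ZNF175 on the ZNF577 side, with 1.20, 2.82 and 3.65 FPKM, and MYADM on the ZNF331 side, with 53.8, 88.9 and 69.1 FPKM. The next ones differed more between the cultures. Beyond ZNF175, ETFB, a subunit of the electron transfer flavoprotein, had 513, 30.5 and 20.9 FPKM and VSIG10L had 3.53, 0.311 and 0.466 FPKM. Beyond MYADM, CACNG8 had 0, 4.39 and 9.63 FPKM and VSTM1 had 0, 28.5 and 18.5 FPKM.

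The members from ZNF577 to ZNF432 showed smaller differences, and none was off in any library. ZNF350, known as ZBRK1 and as a partner of BRCA1 in transcriptional repression, had 3.17 FPKM in parental HepG2, 2.87 FPKM in HepG2/metR and 3.52 FPKM with oxamate. ZNF614 was the highest member of the cluster in parental HepG2 at 8.75 FPKM, and had 5.05 FPKM in HepG2/metR and 5.72 FPKM with oxamate. ZNF432 had 2.71, 2.16 and 3.20 FPKM, and ZNF615 had 1.88, 2.40 and 3.69 FPKM. The members at the outer end of this run were lower in HepG2/metR. ZNF649 had 3.15, 0.715 and 0.546 FPKM, ZNF613 had 2.78, 0.810 and 1.16 FPKM, and ZNF577 had 0.557, 0.212 and 0.287 FPKM. The log2 difference of HepG2/metR from parental HepG2 was -1.28 for ZNF649 and -1.06 for ZNF613, and the latter was -0.97 and no longer 2-fold under upper-quartile scaling of the libraries.

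**Figure D3:**
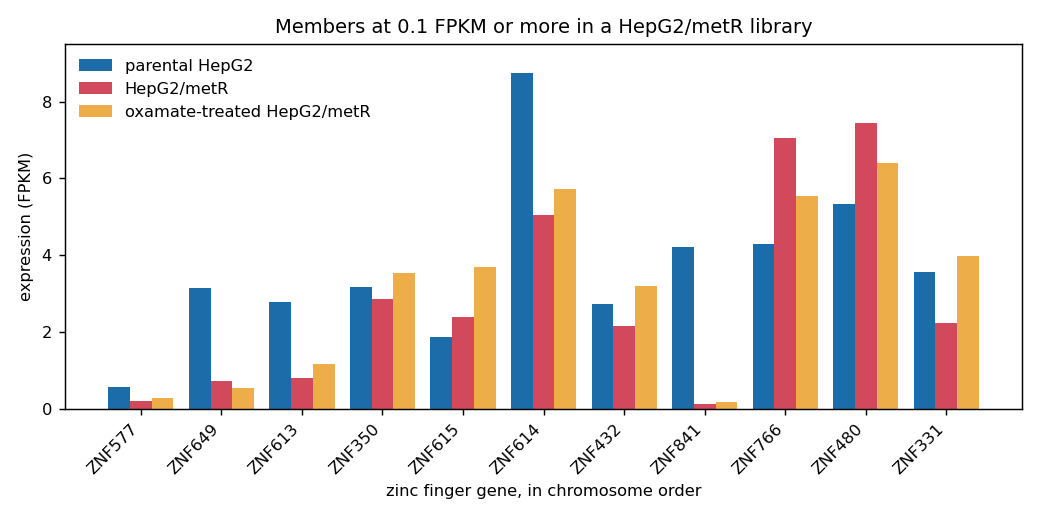
FPKM of the 11 members at 0.1 FPKM or more in at least 1 HepG2/metR library, in chromosome order, with 1 bar per library and an axis from 0. Only ZNF615, ZNF766 and ZNF480 have a HepG2/metR bar above the parental bar, and 8 of the 11 have an oxamate bar above the HepG2/metR bar.

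By fold change, the filter used for all genes, a mean of at least 1 FPKM over the 3 libraries, kept 16 of the 37 members. It removed 21, of which 20 were off in both HepG2/metR libraries, so the kept members underrepresent the silent stretch. Of the 16, 9 had a HepG2/metR value at least 2-fold below the parental one and none had one at least 2-fold above it, where 17.6% and 16.6% of the 12207 genes kept were. This contrast is the one by which the members were chosen. Without the filter, 18 of the 37 were as much lower. The median log2 difference was -1.17 over the kept members, -0.85 over all 37, and 0.02 over all genes kept. Folds here are differences of log2(FPKM + 1), so those of genes with low FPKM come out smaller than their FPKM ratios.

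Oxamate left the map of on and off members as it was, apart from ZNF613, which went from 0.810 to 1.16 FPKM. None of the 15 members on in parental HepG2 and off in HepG2/metR came back to 0.1 FPKM. Of the 16 kept members, ZNF331 was at least 1.5-fold higher with oxamate and none was at least 1.5-fold lower, where 4.3% and 3.82% of all genes kept were. The same HepG2/metR library enters this comparison and the one with parental HepG2. Among the 11 members at 0.1 FPKM or more in at least 1 HepG2/metR library, 8 had a higher and 3 a lower value with oxamate, with a median log2 difference of 0.15. The lower ones were ZNF649, ZNF766 and ZNF480, with differences of -0.15, -0.30 and -0.19. The larger positive differences were 0.63 for ZNF331, 0.47 for ZNF615, 0.41 for ZNF432, 0.25 for ZNF613 and 0.22 for ZNF350. Over the 16 kept members, 6 of them off in both HepG2/metR libraries, the median was 0.01. Over all genes kept it was 0.02. Among other ZNF genes kept it was 0.26 on chromosome 19 and 0.19 on other chromosomes.

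Lost genes were counted in the rest of the family in the same way. Of 132 other ZNF genes of chromosome 19 that were on in parental HepG2, 13, or 9.85%, were off in both HepG2/metR libraries, and on other chromosomes 4 of 190, or 2.11%, were. In the other direction, 6 of the 28 other chromosome 19 ZNF genes that were off in parental HepG2 were on in both HepG2/metR libraries. They were ZNF302, ZNF229, ZNF470, ZNF671, ZNF418 and ZNF132. Among ZNF genes of other chromosomes, 11 of the 45 off in parental HepG2 were on in both HepG2/metR libraries. Over all genes off in parental HepG2 this share was 5.74%, and of the members 0 of 7 were. With only 7 such members, 0 does not set them apart from the share of all genes. Over the other chromosome 19 ZNF genes kept by the filter, the median log2 difference was 0.36 for HepG2/metR against parental HepG2 and 0.26 for oxamate, both above the medians of all genes. Of these 147 genes, 25 were at least 1.5-fold higher with oxamate and 0 as much lower. Of 200 kept ZNF genes on other chromosomes, 10 were higher and 1 lower. Over all genes kept the shares were 4.3% and 3.82%. With 1 library per condition and members picked for their loss, these differences were not tested.

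Of the 13 other lost genes of chromosome 19, 12 lay in 2 runs. Runs were formed from protein-coding ZNF genes separated by no more than 3 other protein-coding genes with deposited values, which gave 6 further runs of 10 or more genes with 99 genes on in parental HepG2. Of the lost genes, 8 lay in the run from ZNF627 to ZNF791, where 19 were on (ZNF440, ZNF439, ZNF69, ZNF433, ZNF878, ZNF844, ZNF44 and ZNF563), and 4 lay in the run from ZNF101 to ZNF254, where 15 were on (ZNF626, ZNF493, ZNF100 and ZNF43). The remaining one was ZNF556, with 12.0 FPKM in parental HepG2 and 0 in both others, and the 2 other genes of its run that were on in parental HepG2 stayed on. The 4 remaining large runs lost none. In the run from ZNF264 to ZNF446, nearer the chromosome end, all 30 genes that were on in parental HepG2 were on in all 3 libraries, as were 15 of 15 from ZNF565 to ZNF573, 13 of 13 from ZNF283 to ZNF180 and 7 of 7 from ZNF317 to ZNF846.

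**Figure D4:**
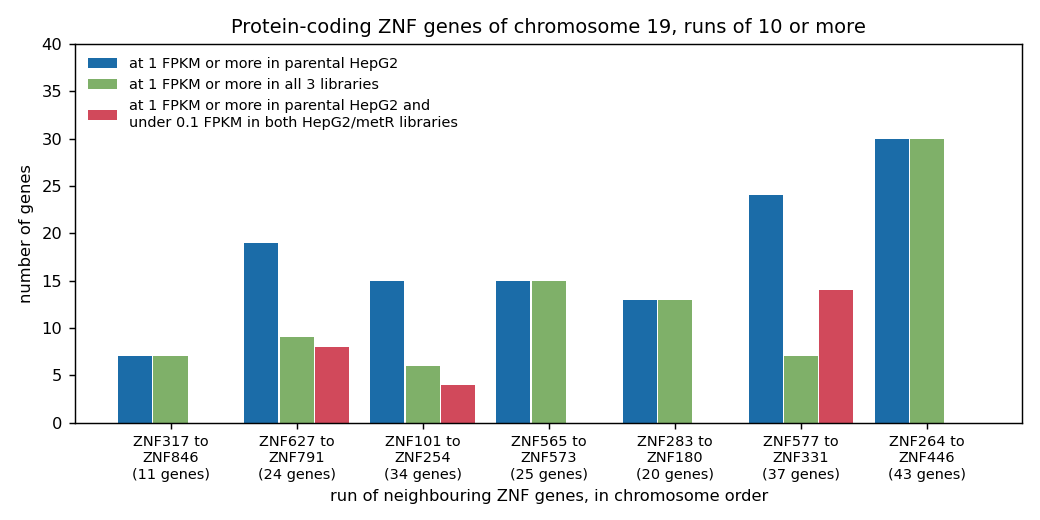
Number of protein-coding ZNF genes in each of the 7 chromosome 19 runs of at least 10, in chromosome order, that were on in parental HepG2 (blue), on in all 3 libraries (green) or on in parental HepG2 and off in both HepG2/metR libraries (red). The ZNF577 to ZNF331 run, counted here as 36 members and ZNF525, has the highest red bar at 14, and 4 runs have none.

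The promoters of the 13 lost genes outside the cluster were compared with the members' by the same counts. All 13 held a GC box, 5 of them (38.5%) 2 or more, and 6 (46.2%) held AGGCCCCGCC. Among 102 matched chromosome 19 ZNF genes outside the cluster that were on in all 3 libraries, 58.8% held a GC box. In this set 30.4% held 2 or more, and 7 (6.86%) held the 10-letter run. The median number of boxes was 1 in both sets. The CG count went the other way from the members', with a median of 12 in the lost genes and 20.5 in those on in all 3 libraries. Among the members it was 26 in those off in both HepG2/metR libraries and 22 in the rest. Most of the lost genes lie in 2 runs of neighbours, so their promoters are not independent points either.

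TRIM28 and SETDB1, through which KRAB proteins act, were transcribed in all 3 libraries. TRIM28 had 104 FPKM in parental HepG2, 150 FPKM in HepG2/metR and 114 FPKM with oxamate, and SETDB1 had 10.2, 10.6 and 10.6 FPKM. The HP1 genes CBX1, CBX3 and CBX5 had 93.8, 166 and 6.94 FPKM in parental HepG2 and 181, 241 and 10.8 FPKM in HepG2/metR, each a difference under 2-fold. ZNF274, a zinc finger gene outside the cluster whose protein binds zinc finger genes and recruits SETDB1 to them, had 6.54, 15.5 and 14.4 FPKM. The HUSH complex, which works with SETDB1, was uneven: MPHOSPH8, its chromodomain subunit, had 16.4 FPKM in parental HepG2, 0.00829 FPKM in HepG2/metR and 0 with oxamate. FAM208A, which encodes TASOR, had 6.32, 13.7 and 14.7 FPKM, PPHLN1 had 32.8, 36.5 and 31.4 FPKM, and MORC2 had 11.3, 10.1 and 11.2 FPKM.

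DNA methyltransferases differed in direction. DNMT1, which maintains methylation after replication, had 29.2, 41.9 and 29.01 FPKM, while the de novo enzyme DNMT3A had 21.1, 3.31 and 5.09 FPKM and DNMT3B had 6.70, 2.85 and 2.13 FPKM. TET1, which oxidizes methylcytosine, had 1.79, 0.0752 and 0.157 FPKM and did not pass the filter. CHD3, a nucleosome remodeller of the NuRD complex, had 1.27, 31.7 and 34.4 FPKM, and SUZ12, a subunit of Polycomb repressive complex 2, had 17.2, 38.9 and 36.6 FPKM. Over the whole list of 37 cofactor and heterochromatin genes, 36 were kept. Of these, 2 were at least 2-fold lower (MPHOSPH8 and DNMT3A) and 4 at least 2-fold higher (CHD3, SUZ12, ZNF274 and FAM208A) in HepG2/metR. Over all genes kept, 17.6% were as much lower and 16.6% as much higher. On the log2(FPKM + 1) scale DNMT3B fell just short of 2-fold at -0.999993, and FAM208A was just past it at 1.005. The median difference was 0.13, and with oxamate it was -0.09, which turned to 0.069 with the libraries scaled to the same total. With oxamate there were 2 genes at least 1.5-fold lower (UHRF1 and EZH2) and 1 higher (TET3), where 3.82% and 4.3% of all genes kept were. The part of these genes in the silence of the members was not tested.

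**Figure D5:**
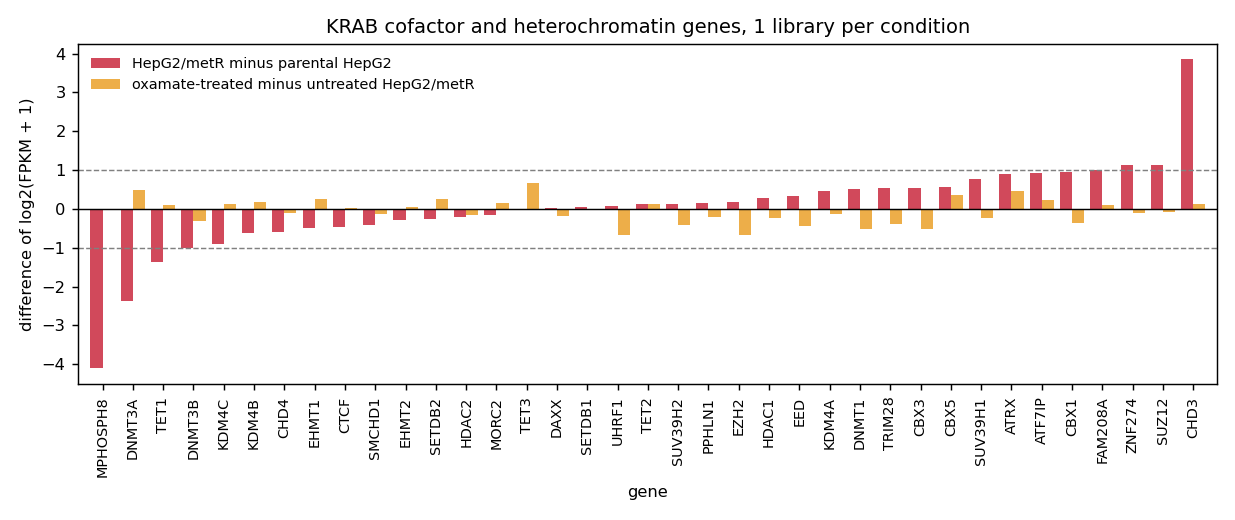
Difference of log2(FPKM + 1) for the 37 KRAB cofactor and heterochromatin genes, HepG2/metR minus parental HepG2 (red) and oxamate-treated minus untreated HepG2/metR (yellow), ordered by the former, with dashed lines at 2-fold. MPHOSPH8 and DNMT3A are the lowest at -4.11 and -2.36 and CHD3 the highest at 3.85.

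Markers of the cell type also differed between the parental and the HepG2/metR cultures. Of 14 hepatocyte genes, all were on in parental HepG2, where they summed to 33410 FPKM and the lowest was at 13.44 FPKM, and 2 were on in each HepG2/metR library, where they summed to 14.7 and, with oxamate, 12.1 FPKM. ALB, encoding albumin, had 9206, 0.747 and 0.617 FPKM, and HNF4A, a transcription factor of the hepatocyte programme, went from 68.7 to 0.0156 FPKM in HepG2/metR. These markers of the labelled tissue were thus at or near 0 in HepG2/metR, apart from SERPINA1 at 11.2 FPKM and FGB at 1.30 FPKM. Of 6 mesenchymal genes, 3 were on in each library, but not the same ones: VIM, FN1 and COL1A1 in parental HepG2, and VIM, FN1 and THY1 in both others. VIM, encoding vimentin, had 1.23, 1576 and 1140 FPKM, and THY1 had 0.0374, 53.3 and 48.5 FPKM. FN1, encoding fibronectin, went the other way with 1503, 45.7 and 93.7 FPKM, and COL1A1 had 1.22, 0.494 and 0.677 FPKM. COL1A2 and COL3A1 were under 1 FPKM in every library. PTPRC, a blood cell gene, and PECAM1, an endothelial gene, were at or under 0.192 FPKM in every library. The part of this wider difference between the cultures in the loss of the members was not tested, and in bulk RNA fewer cells of a type and less RNA per cell cannot be told apart.

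Members can share reads with one another. In RefSeq 10 members overlap another listed gene, such as ZNF600 with ZNF28, ZNF610 with ZNF880, ZNF761 with TPM3P9, and ZNF816 and ZNF321P with their read-through gene, and their values in parental HepG2 are uncertain to that extent. In the longest GENCODE transcript of each member, a median of 1.68% of 50-base runs also occurred in a gene that does not overlap it, with a highest share of 16.2% in ZNF600, and 6 members, all from ZNF610 to ZNF813, were over 10%.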

How the data were processed

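Total RNA was extracted with Trizol by the authors and sequenced on an Illumina NextSeq instrument, with 1 library per condition. The deposited values are log2 values, 1 per gene symbol, and have the form of log2(FPKM + 1); this was inferred from the values, since 100% of those above 1 turned back into numbers of at most 6 significant digits. The submitters' processing notes name the build hg19 and the tools STAR 2.5.1b, FastQC 0.11.5 and Cufflinks 2.2.1, with no role or order. Strand and multimapping settings are not given in the sources used here.

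From the deposited values, FPKM was recovered and differences of log2 values were taken with Python 3.11, pandas 2.3.3 and numpy 2.4.6. A gene was kept at a mean of at least 1 FPKM, a filter set here. The folds of 2 for HepG2/metR and 1.5 for oxamate are the limits named in the study's methods. Of the rows, 4 of 2 duplicated symbols were dropped and 28 symbols had become dates. The scripts were tested on simulated data. RefSeq (GRCh38.p14) gave gene order and promoters, and GENCODE 29 gave transcripts; neither is the build of the values. The members and the gene lists were chosen with earlier results of these data known. Every member is named; non-members in the cluster or among the 5 RefSeq genes on each side are named where protein-coding and at 1 FPKM or more, and from the cofactor list the KRAB, HUSH, HP1 and DNA methyltransferase genes and those changed at least 2-fold. Other genes named (pseudogenes, ZNF525 and the read-through gene in the stretch, the 3 nearest expressed genes on each side, lost and gained ZNF genes, genes changed with oxamate) were chosen after their values were seen. The alternatives tried were another pseudocount, 3 scalings, 2 filters and 4 limits for on and off.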

Additional observations from a re-analysis of the deposited data

How the results depend on the processing

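No paired analysis was possible because each condition had 1 library and the labels carry no replicate numbers, and leaving out a library was likewise not possible. The numbers of members lost (15), on in all 3 libraries (7) and gained (0) stayed within 1.5 times of these under the 4 other limits for on and off and with the libraries scaled to the same total. Of 75 values of comparisons, 58 moved by no more than the set limits (0.1 on the log2 scale, or 1.5 times for a count), 16 moved further and 1 past its fold limit reversed, and of 296 differences of single members 286 stayed on their side of the fold limit, 10 crossed it and none past the limit reversed. Below the limits, the sign also turned for the member median with oxamate at a mean of at least 5 FPKM, for the cofactor median with oxamate under same-total scaling, and for ZNF350 under upper-quartile scaling (0.0056). With a pseudocount of 0.1, 2 members were at least 1.5-fold higher with oxamate, and the medians of HepG2/metR minus parental HepG2 were -1.83 for the members and 0.51 for other chromosome 19 ZNF genes. With no filter, 18 members were at least 2-fold lower, the member median was -0.85, and the other chromosome 19 ZNF medians were 0.10 and, with oxamate, 0.14. At a mean of at least 5 FPKM, 3 members were left, so 0 were lower in HepG2/metR and 0 higher with oxamate; the member medians were 0.41, a reversal made by leaving out the silent genes, and -0.19, and the other chromosome 19 ZNF median was 0.53. Upper-quartile scaling, which moved the median of all genes to 0.15, gave 0.49 for other chromosome 19 ZNF genes and 0.24 for the cofactors. Scaling to the same total, which moved it to 0.17 with oxamate, gave 2 members higher with oxamate and oxamate medians of 0.41 for other chromosome 19 ZNF genes and 0.069 for the cofactors. The 8 higher and 3 lower members with oxamate kept their signs in the 5 settings of pseudocount and scaling. Without read counts, a gene listed at 0 cannot be given an upper limit. Between the libraries, 28 genes had 10 FPKM or more in 1 HepG2/metR library and 0 in the other, and all 28 were small RNAs.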
